A study of Rattus norvegicus with 15 samples.

Results

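Transcripts of 3 genes of protein synthesis, Rplp1, Rpl13a and Eif4b, were followed through 3 stages of the rat enamel organ. Their probes were taken by name and transcript. 2 custom probes carried a transcript of Rplp1 or Rpl13a, and 1 further probe carried a transcript of Eif4b. These 3 genes were among 38 that could be named on the array. A list of 131 genes of the ribosome, translation factors and their regulators held no other gene named there. The study profiled enamel organ from the mandibular incisor of 4-week-old Wistar Hannover rats with one-colour Agilent arrays, and its title concerns long noncoding RNAs in enamel formation. The labels give 5 arrays each for the cervical loop, the secretory stage and the maturation stage. No treatment or altered gene is named for any group. The series design mentions 5 rats and a separate profile for each of the 15 RNA samples. The labels used here do not tie samples to single rats, so p-values measure the spread between these samples.

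Ribosomes decode messenger RNA into protein, and their proteins are needed in fixed proportions with ribosomal RNA. Rplp1 encodes an acidic protein of the stalk of the large subunit, the part that recruits and activates translation factors. Rpl13a encodes another protein of the large subunit, which is also known for a role outside the ribosome in silencing selected transcripts during inflammation. Eif4b encodes an initiation factor that stimulates the RNA helicase eIF4A, which unwinds the start of a messenger RNA for the small subunit. In the incisor, which grows throughout life, the cervical loop holds the epithelial progenitors. Secretory ameloblasts make and export large amounts of enamel protein. Maturation ameloblasts then help to remove that protein while mineral is added. Rplp1 and Rpl13a are also in common use as reference genes for scaling other transcripts.

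The messenger RNAs of ribosomal proteins commonly begin with a run of pyrimidines through which their translation is controlled. The bases around the annotated start are therefore shown for the pair of ribosomal genes, from RefSeq on the build GRCr8, both on the minus strand and written 5′ to 3′ in the direction of the gene. Each line gives 50 bases before the start and 12 from it, and capitals mark the letters CCTTTCCT, chosen after both sequences had been seen. The windows lie at chr8:71290861-71290922 for Rplp1 and at chr1:104748902-104748963 for Rpl13a.
Rplp1: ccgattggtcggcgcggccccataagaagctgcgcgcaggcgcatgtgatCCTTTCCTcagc
Rpl13a: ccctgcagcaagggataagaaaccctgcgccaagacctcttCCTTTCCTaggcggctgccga
In Rplp1 these letters are bases 1 to 8 of the annotated transcript. In Rpl13a they end before the annotated start, at positions -9 to -2. Each window held 1 copy, counting both strands. Of 33469 such windows in the reference table, 108 (0.323%) held the letters on the strand of the gene and 208 (0.621%) on either strand. Among the ribosomal protein genes of the list, 4 of 63 windows (6.35%) held them, both genes shown included. No window of the start of Eif4b is printed. The array data do not measure where transcripts start.

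All 3 probes were bright and were printed many times on each array, so that the error within an array was small. Rplp1 and Rpl13a had 30 spots per array and Eif4b had 10, of which 28 to 30 were used for Rpl13a, 9 or 10 for Eif4b and all for Rplp1. Every array measured each probe well above background, and no spot was saturated. The standard deviation of the log2 signal among the spots of an array was 0.047 to 0.081 for Rplp1, 0.031 to 0.092 for Rpl13a and 0.023 to 0.11 for Eif4b. The standard error of an array's value was thus at most 0.015, 0.017 and 0.036. Counted from the brightest, the Rplp1 probe ranked 57 to 152 among at least 38139 probes, Rpl13a 220 to 433 and Eif4b 2894 to 4853. These ranks describe the probes and not the abundance of one gene against another. The gene table lists pseudogenes or like genes for each member, 6 for Rplp1, 12 for Rpl13a and 4 for Eif4b. The probe sequences were not used here, so signal from near-identical copies cannot be told apart from that of the gene itself.

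**Figure D1:**
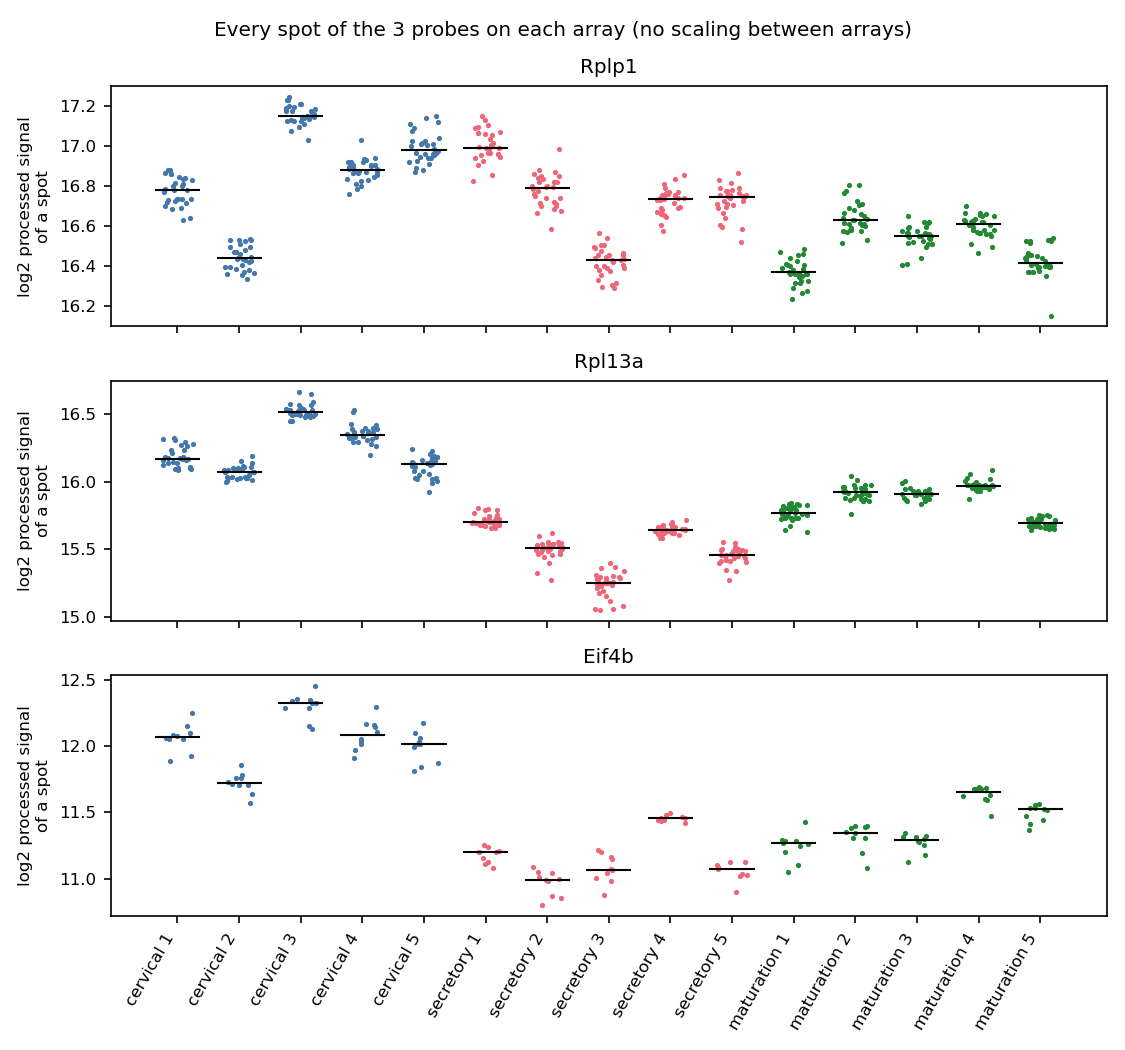
Log2 processed signal of every spot used, with no scaling between arrays, for the Rplp1, Rpl13a and Eif4b probes on the 15 arrays; each point is 1 spot, the bar is the median of the spots, and the horizontal position within an array has no meaning. The spots of an array lie close together (standard deviation at most 0.11) compared with the distances between many arrays, and the bars of Rpl13a and Eif4b sit higher on every cervical loop array than on any other array. The share of all features with that pattern was not counted.

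The 3 stages were taken from the tissue label. Titles and tissue labels disagreed for 8 of the 15 arrays, all of them secretory or maturation. Maturation replicates 2 to 5 by tissue label are titled secretory, and secretory replicates 2 to 5 are titled maturation. Of these stages, only replicate 1 of each agrees. Under the titles, each member's difference between these stages had the opposite direction, and those results are given in the closing section. Correlations between arrays were taken over the features tested that had a value on every array. They were 0.974 to 0.987 within the cervical loop, 0.985 to 0.992 within the secretory stage and 0.988 to 0.995 within maturation. Between secretory and maturation arrays they were 0.930 to 0.951. The 7 marker lists, of enamel-forming epithelium, odontoblasts and pulp, blood and immune cells, endothelium, muscle, nerve and dividing cells, had 0 genes named on the array. The labelled stages therefore could not be checked against markers, and in these bulk samples fewer cells of a type and less RNA per cell cannot be told apart. The cervical loop arrays and the others were scanned on different days, so for comparisons with the cervical loop the stage and the scan day cannot be told apart.

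Rplp1, the stalk protein gene, had its highest mean in the secretory stage with 75th percentile scaling, and in the cervical loop as scanned. Values are log2 processed signals minus the 75th percentile of the same array. Secretory replicates 1 to 5 read 8.28, 8.18, 8.21, 8.20 and 8.23. Cervical loop replicates 1 to 5 read 7.91, 7.75, 7.80, 8.25 and 7.78. Maturation replicates 1 to 5 read 7.55, 7.70, 7.68, 7.63 and 7.27. All maturation arrays were below all others, and cervical loop replicate 4 alone reached into the secretory range. The means were 8.22 ± 0.04 in the secretory stage, 7.90 ± 0.21 in the cervical loop and 7.56 ± 0.17 in maturation (SD, n = 5 each).

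From the secretory to the maturation stage Rplp1 fell by 0.66 (SE 0.12, limma adjusted p = 0.000256), which was 1.58-fold. In this comparison 59.5% of the 28844 features tested passed the threshold of 0.05, and 34.4% passed in the downward direction. The groups did not overlap, as was the case for 45.7% of the features. Maturation replicate 5 was the only maturation array scanned together with secretory arrays, namely replicates 1 to 3, and differed from these by -0.96. A fit with scan as a block rests on the same arrays and gives the same value, so that both stand on 1 maturation array, which had the lowest scaled value of its stage for all 3 genes and is assumed to vary like the other arrays. The limma adjusted p was 0.0551 within the scan, where 11.8% of features passed, and 0.00625 with the block, where 20.2% passed. The fall passed the threshold under 6 of 7 combinations of background and scaling, from -0.83 with the 90th percentile to -0.35 with normexp correction and quantile normalization, and without scaling the difference was -0.21 (limma adjusted p = 0.304).

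Between cervical loop and secretory stage the direction of Rplp1 depended on the scaling. It rose by 0.32 (SE 0.12, limma adjusted p = 0.0305) with the 75th percentile, against 58.1% of features called and 21.4% called higher, whereas with no scaling the difference was -0.12 (limma adjusted p = 0.547). It was 0.54 with median scaling (limma adjusted p = 0.00346) and 0.12 with quantile normalization (limma adjusted p = 0.251), and 2 of the 7 combinations passed the threshold. Leaving out any 1 of secretory replicates 1 and 5 or cervical loop replicates 2, 3 and 5 ended the call, with differences of 0.29 to 0.41 over all 15 omissions and adjusted p up to 0.0661. Between cervical loop and maturation Rplp1 fell by 0.33 (SE 0.12, limma adjusted p = 0.0246) with the 75th percentile and without overlap, and the difference was 0.11 with median scaling (limma adjusted p = 0.518). Here 63.3% of features passed and 45% did not overlap. That call ended without cervical loop replicate 4 or without maturation replicate 5, with an adjusted p up to 0.0651.

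Rpl13a, the other large-subunit gene, followed another course, with its highest mean in the cervical loop under the same scaling. Its scaled values were 7.32, 7.37, 7.16, 7.73 and 6.90 for cervical loop replicates 1 to 5. The secretory arrays read 6.99, 6.91, 7.03, 7.12 and 6.95. The maturation arrays read 6.95, 6.97, 7.04, 7.0 and 6.53. All 3 ranges overlapped. Cervical loop replicate 5 lay just below every secretory array and inside the maturation range, and maturation replicate 5 lay below every other array. Means were 7.30 ± 0.30, 7.0 ± 0.08 and 6.90 ± 0.21 in that order (SD, n = 5 each).

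Between secretory and maturation arrays Rpl13a did not pass the threshold under any of the 7 combinations. Its difference was -0.10 with the 75th percentile (95% interval -0.41 to 0.21, limma adjusted p = 0.559), 0.12 with median scaling and 0.34 without scaling. It was -0.012 without maturation replicate 5, and that array alone differed from the secretory arrays of its scan by -0.44 (limma adjusted p = 0.264, assuming that it varies like the others). The unadjusted limma p was 0.0396 without scaling and 0.0425 with normexp correction and quantile normalization, and above 0.05 under the other 5 combinations. Against the cervical loop, its difference in the secretory stage was -0.29 (SE 0.15, limma adjusted p = 0.0947) with the 75th percentile. All 7 combinations put it lower there and 5 passed, including quantile normalization (-0.30, limma adjusted p = 0.0108) and no scaling (-0.74, limma adjusted p = 0.000503). Without cervical loop replicate 5 the 75th percentile setting passed as well, with a difference of -0.39. In maturation Rpl13a fell by 0.40 against the cervical loop (SE 0.15, limma adjusted p = 0.0262), and the difference was 0.04 with median scaling. The fall did not pass without cervical loop replicate 4 or without maturation replicate 5 (adjusted p up to 0.0728).

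Eif4b, the initiation factor gene, also had its highest mean in the cervical loop. Its cervical loop values were 3.20, 3.03, 2.94, 3.46 and 2.78 for replicates 1 to 5. Secretory values were 2.45, 2.37, 2.87, 2.93 and 2.56. Maturation values were 2.43, 2.37, 2.40, 2.66 and 2.33. Every maturation array lay below every cervical loop array, as was the case for 8744 of 28597 features, while the secretory range overlapped both. The means were 3.08 ± 0.26, 2.64 ± 0.25 and 2.44 ± 0.13 (SD, n = 5 each).

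Eif4b fell by 0.45 from cervical loop to secretory stage (SE 0.15, limma adjusted p = 0.0165), as did 36.7% of all features. Its difference between maturation and cervical loop was -0.65 (SE 0.15, limma adjusted p = 0.00131), where 42.7% of all features were called lower. Both differences were negative under all 7 combinations and passed under 6. With median scaling they were -0.23 and -0.21 (limma adjusted p = 0.225 and 0.261). Both calls held in each of the 15 analyses that left out 1 array. From secretory to maturation stage the difference was -0.20 (95% interval -0.51 to 0.11, limma adjusted p = 0.257), and -0.13 without secretory replicate 4. There, 3 of the 7 combinations passed with a lower value in maturation, for instance -0.35 with quantile normalization (limma adjusted p = 0.0497), whereas the difference was 0.02 with median scaling and 0.24 without scaling.

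**Figure D2:**
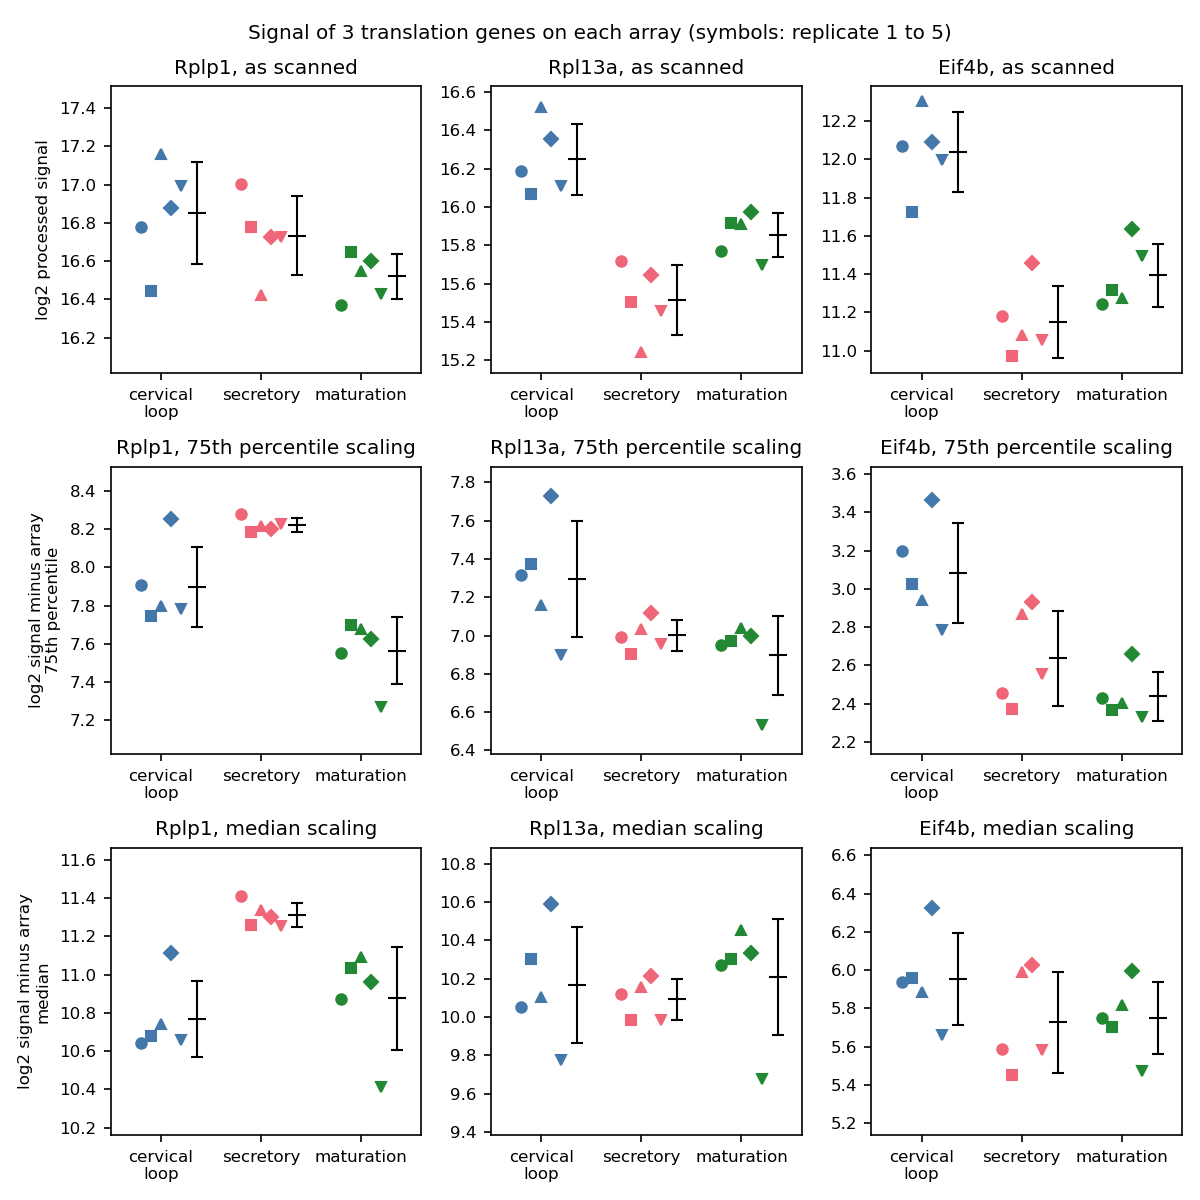
Signals of Rplp1, Rpl13a and Eif4b (columns) on each array by stage, as log2 processed signal (top), minus the 75th percentile of the array (middle) and minus its median (bottom); symbols are the replicate numbers 1 to 5, and bars are mean ± SD of 5 arrays. The secretory Rplp1 values lie within 8.18 to 8.28 in the middle row, above all maturation arrays, while the order of the other stages changes between rows.

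The scanned signals show the stages before any scaling. Rplp1 averaged 119751 ± 21265 in the cervical loop, 109791 ± 15482 in the secretory stage and 94219.6 ± 7476 in maturation (processed signal, SD, n = 5 each). Rpl13a averaged 78388 ± 10508.5, 47039 ± 5842 and 59355 ± 4707, so that as scanned the secretory stage was the lowest. Its cervical loop arrays, at 68763 to 94094.5, did not overlap with the others, of which the highest was 64333. For Eif4b the averages were 4238 ± 601, 2286 ± 313 and 2704 ± 319.6, again without overlap between the cervical loop (3386 to 5059) and the other stages. How many features separate in this way without scaling was not counted. Without scaling, 15983 of 28844 features were called lower in the secretory stage than in the cervical loop, and 10529 in maturation. The arrays themselves differed, since the mean log2 signal of the 75th percentile was 8.95 in the cervical loop, 8.51 in the secretory stage and 8.96 in maturation. For the median of the array it was 6.08, 5.42 and 5.64.

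The members were also set against all features. The median difference of all features tested was -0.19 for secretory minus cervical loop, -0.12 for maturation minus secretory and -0.28 for maturation minus cervical loop with the 75th percentile, and it moved to 0.03, 0.10 and 0.16 with median scaling. Subtracting that median leaves values that do not depend on a scaling factor, although quantile normalization and normexp correction still change them. Rplp1 was then 0.52, -0.54 and -0.06 for the 3 comparisons in that order. The first was higher than 75% of the features tested, the second than 24.2% and the third than 47.3%. Rpl13a was at -0.10, 0.02 and -0.12, above 44.6%, 50.8% and 44.3% of the features. Eif4b was at -0.25, -0.08 and -0.37, above 36.9%, 46.2% and 32.8% of the features. With normexp correction, another treatment of background, the shares below Rplp1 were 67.1%, 13.7% and 26.7%, those below Rpl13a 20.2%, 62.9% and 25.6%, and those below Eif4b 15.4%, 56.2% and 12.7%. With quantile normalization they were 60.3%, 30.9% and 39.6% for Rplp1, 37.6%, 58.2% and 43.9% for Rpl13a, and 26.4%, 30.9% and 13.6% for Eif4b. With both, Eif4b in maturation minus cervical loop was above 6.05% of the features. Over the 7 combinations, taken as the 75th and 90th percentile, median, quantile and no scaling, then normexp correction with the 75th percentile and with quantile normalization, the share of all features called was 58.1%, 58.3%, 55%, 57.3%, 64%, 48% and 54.1% for secretory minus cervical loop. In the same order it was 59.5%, 60.7%, 57.6%, 54.6%, 50%, 67% and 51.3% for maturation minus secretory. For maturation minus cervical loop it was 63.3%, 67.8%, 60.6%, 54.9%, 53.1%, 52.9% and 52.4%. At least 48% of the features were thus called in each case, and the members' calls stand against that share. Higher values made up 36.8%, 42.2% and 32.5% of the calls in these comparisons with the 75th percentile, 53.8%, 57.8% and 61.8% with median scaling, and 13.4%, 77.8% and 31.3% without scaling.

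**Figure D3:**
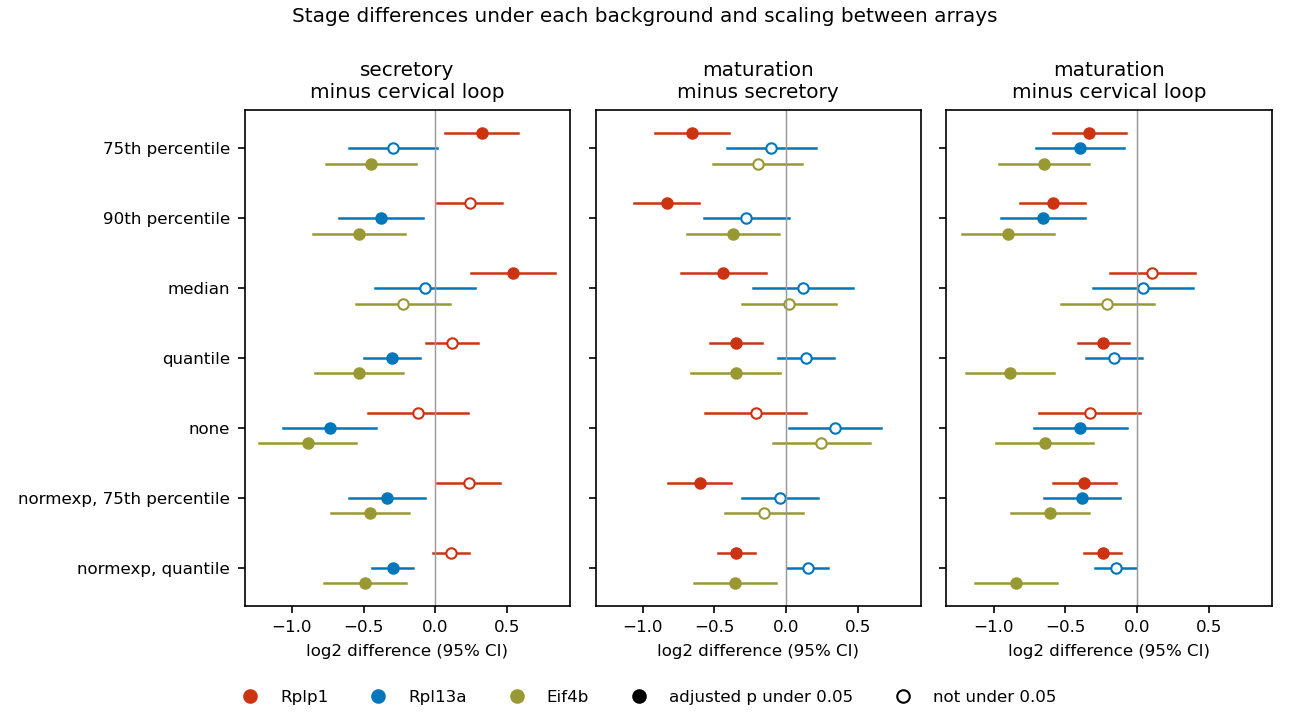
Log2 differences between stages for Rplp1, Rpl13a and Eif4b under 7 combinations of background correction and scaling (rows), with 95% intervals from limma; filled points have an adjusted p under 0.05. Rplp1 lies below 0 in maturation minus secretory in every row (-0.83 to -0.21), and Eif4b lies below 0 in both comparisons with the cervical loop.

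Ratios between probes on the same array do not depend on a scaling factor, and they show unequal change without saying which gene moved. The Rplp1 signal divided by that of Rpl13a was 2.44, 2.42, 2.27, 2.12 and 2.41 on secretory arrays 1 to 5. It was 1.51, 1.30, 1.55, 1.44 and 1.85 on cervical loop arrays, and 1.52, 1.66, 1.55, 1.55 and 1.66 on maturation arrays. All secretory arrays stood above all others. The mean ratios were 2.33 ± 0.14 in the secretory stage, 1.53 ± 0.20 in the cervical loop and 1.59 ± 0.07 in maturation (SD, n = 5 each).

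On the log2 scale this ratio was 0.62 higher in secretory than in cervical loop arrays (SE 0.09). The two-sided exact permutation test gave p = 0.00794, the smallest that 5 against 5 arrays allow, and 0.0238 after Benjamini-Hochberg adjustment over the 9 ratio comparisons. For maturation minus secretory the change was -0.55 (SE 0.05, exact permutation p = 0.00794, adjusted 0.0238). With the arrays of these stages paired by replicate number, the exact sign-flip permutation p was 0.0625, the smallest that 5 pairs allow. Maturation minus cervical loop was 0.06 (SE 0.09, exact permutation p = 0.516). Both separations also appeared with normexp correction, at 0.57 and -0.56, and within the scan that held both stages the change was -0.51, from 1 maturation and 3 secretory arrays. A separation of this kind was common on the array. Over Rpl13a, the ratios of 29.4% of the features tested did not overlap between secretory and cervical loop arrays, 18.6% being higher, and 35.8% did not overlap between maturation and secretory arrays, 12.3% being lower.

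Over Eif4b, the Rplp1 signal also stood highest in the secretory stage. The log2 ratios of secretory arrays 1 to 5 were 1.01, 0.99, 0.53, 0.46 and 0.86 above the cervical loop mean. Those of the cervical loop arrays were -0.11, -0.09, 0.04, -0.03 and 0.19, and those of the maturation arrays were 0.31, 0.52, 0.46, 0.15 and 0.12. Secretory and cervical loop arrays were apart, whereas maturation overlapped with both. The secretory stage exceeded the cervical loop by 0.77 (SE 0.13, exact permutation p = 0.00794, adjusted 0.0238), with 29.2% of features not overlapping in their ratio over Eif4b and 21.6% being higher. Maturation minus secretory was -0.46 and maturation minus cervical loop 0.31 (exact permutation p = 0.0238 and adjusted 0.0429 for both). These last calls ended in 12 and 11 of the 15 analyses that left out 1 array, with adjusted p up to 0.1 and 0.0857.

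The ratio of Rpl13a over Eif4b spanned less between its stage means. In maturation it was 0.25 above the cervical loop (SE 0.09, exact permutation p = 0.0556, adjusted 0.0833), in the secretory stage 0.15 above it (adjusted 0.173), and between maturation and secretory stage it was 0.10 (adjusted 0.446). The ranges overlapped in each comparison. Without maturation replicate 5 the first of these passed, at 0.31. After quantile normalization, which does not keep ratios within an array, maturation stood at 0.49 above secretory and 0.72 above cervical loop, both with an adjusted exact permutation p of 0.0143.

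**Figure D4:**
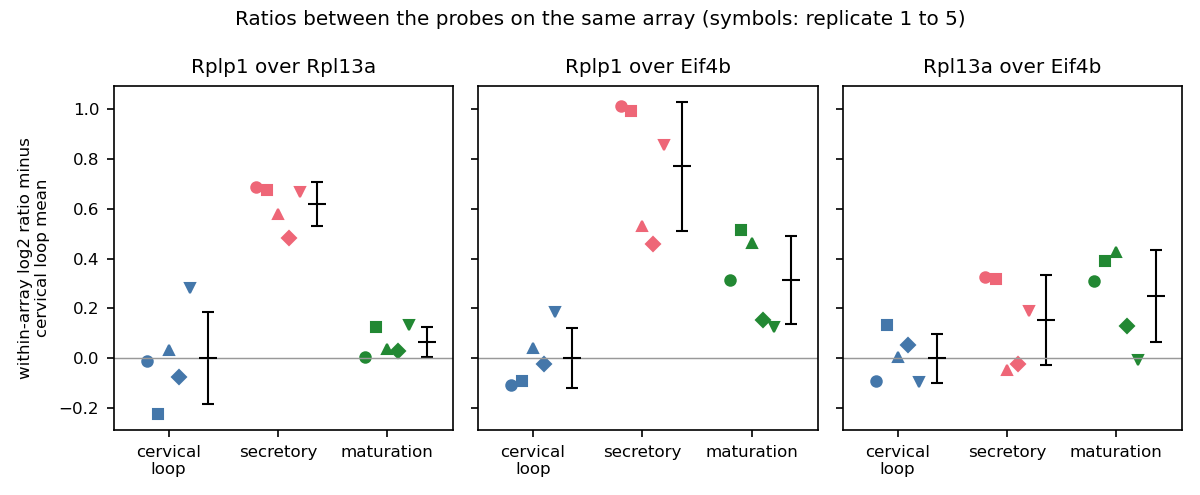
Within-array log2 ratios of Rplp1 over Rpl13a, Rplp1 over Eif4b and Rpl13a over Eif4b, each minus its mean in the cervical loop; symbols are replicates 1 to 5, and bars are mean ± SD of 5 arrays. Secretory arrays lie at 0.48 to 0.69 for Rplp1 over Rpl13a, above all cervical loop and maturation arrays, while the stages overlap for Rpl13a over Eif4b.

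Among the 36 other named genes tested, those most like each member over the 15 arrays were ranked by Pearson's r of the scaled log2 signal, as a description. All genes of an array share its RNA sample and its scaling factor. With the 75th percentile Rpl13a and Eif4b were each other's most similar gene (r = 0.86). For Rpl13a the next were Map2 (0.67), which encodes a microtubule-associated protein, and Magoh (0.67), which encodes a subunit of the exon junction complex. For Eif4b they were Map2 (0.83) and the synaptic scaffold gene Dlg4 (0.74). Rplp1 had no close partner on the positive side, its highest values being 0.44 with Rpl13a, 0.36 with Eif4b and 0.21 with Gusb. Gusb encodes a lysosomal glucuronidase. Inverse relations were stronger for Rplp1, since its lowest r was -0.90, against -0.78 for Rpl13a and -0.77 for Eif4b. The order depended on the scaling. After quantile normalization the highest r was 0.94 for Rpl13a, with Dlg4, and 0.79 for Eif4b, with Map2, while Rplp1 reached 0.41 with Gusb and its r with Rpl13a turned to -0.31. With median scaling Rpl13a and Eif4b were again the most similar to each other (0.72), and Rplp1 reached 0.50 with Ndfip1, which encodes an adaptor of ubiquitin ligases.

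Among the 37 named genes tested, 2 fell from secretory to maturation stage, Rplp1 and the cytochrome P450 gene Cyp2e1, against 34.4% of all features. Another 24 rose, against 25.1% of all features, and 11 did not pass (median difference 0.45 with the 75th percentile). Cyp2e1 did not pass with median scaling (limma adjusted p = 0.108), nor with quantile normalization (limma adjusted p = 0.269). With median scaling 28 named genes rose and Rplp1 alone fell, against 9603 and 7019 of the 28844 features tested. With quantile normalization 19 rose and Rplp1 and Eif4b fell, against 7741 and 7995. With normexp correction 23 rose and 3 fell, against 5948 and 13365. These 3 were Rplp1, Cyp2e1 (-0.41, limma adjusted p = 0.0101) and Map2 (-0.36, limma adjusted p = 0.0305). The 3 members had a median of -0.20, and all features tested one of -0.12. From cervical loop to secretory stage 9 named genes rose and 19 fell (median -0.44), against 21.4% and 36.7% of all features. In maturation against the cervical loop 17 rose and 10 fell (median 0.27), against 20.6% and 42.7% of all features, and all 3 members were among those that fell. With median scaling 21 rose and 5 fell, against 10800 and 6685 of the 28844 features. No member passed there (Rplp1 0.11, Rpl13a 0.04 and Eif4b -0.21). 7 other genes in common use as references were named on the array. In maturation minus secretory 5 of these rose and the other 2 did not pass, and their differences ran from -0.33 for Gusb to 2.20 for Hprt1, a purine salvage enzyme gene. In secretory minus cervical loop 1 of the 7 rose, 3 fell and 3 did not pass, from -1.19 for Actb, the beta-actin gene, to 0.66 for Sdha, a succinate dehydrogenase subunit gene.

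**Figure D5:**
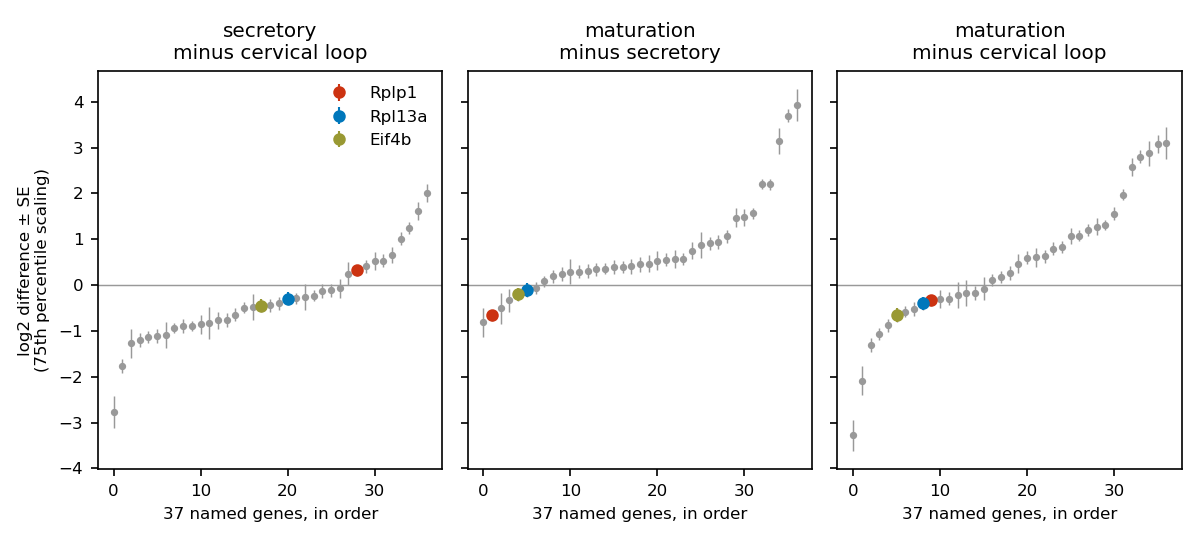
Log2 differences between stages (75th percentile scaling, ± SE) of the 37 named genes tested, ordered by size in each comparison, with Rplp1, Rpl13a and Eif4b in colour. In maturation minus secretory the 3 members lie at the low end of these named genes, with Rplp1 at -0.66 and none of them above 0. Among all features tested, Rpl13a and Eif4b lay above 50.8% and 46.2%. With median scaling their differences were 0.12 and 0.02.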

How the data were processed

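Total RNA of 15 enamel organ samples was measured on one-colour arrays, 5 per stage, with stages from the tissue label and replicate numbers from the titles. Agilent Feature Extraction 11.0.1.1 is the image software per the submitters' processing notes. The deposited scanner files hold linear intensities for each spot, among them a background-corrected processed signal, and name rn4 as the build of the array design, per the file headers. The deposited series table holds the authors' log2 values, whose normalization no source used here states. It had a row for none of the 3 genes, so it served only for counts over all features. Arrays held 41623 spots of 38321 probes, with 67.4% to 78.9% of spots well above background, and 107 to 276 flagged spots per array were left out. The number of arrays limits the precision.

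Spots of a probe were averaged, and the log2 value minus the array's 75th percentile was tested with limma's lmFit and eBayes (version 3.58.1, R 4.3.3), all 15 arrays in one fit with no block. The test covered 28844 features that every array of some stage measured well above background. Benjamini-Hochberg adjustment ran over all of them (threshold 0.05). Ratios were tested by exact permutation of the arrays in Python 3.11.15, with a routine checked against scipy 1.17.1. Figures were drawn with matplotlib 3.10.9. The steps were tested on simulated data. Transcript accessions were matched to a gene table of GRCr8, 39 of 62 with success, and used for names only.

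Alternatives were quantile, median, 90th percentile and no scaling, normexp correction (offset 50) with the 75th percentile or quantile normalization, the median of spots, no filter on dim probes, the series table, the replicate number and the scan as blocks, stages from the titles, and leaving out each array. The numbers were taken to pair maturation with secretory arrays, because deviations of same-numbered arrays correlated at 0.107 to 0.289 in all 5 pairs. For pairs with the cervical loop the correlations ran from -0.105 to 0.249. Genes named are the members, other translation and reference genes on the array, and the 3 genes most like each member. The members and lists were chosen with earlier results of these data known, and Cyp2e1 was named after its value was seen.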

Additional observations from a re-analysis of the deposited data

Results flagged for a closer look

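1 of 27 groups of 5 arrays, made of the scaled, unscaled and ratio values by stage, held an array far from the others. On maturation replicate 5 the scaled log2 signal of Rpl13a was 6.53, against 6.95 on the next array, and that gap was 0.82 of the whole range. Chance marks about 1 in 20 such groups. The same array had the highest 75th percentile of its stage (9.16 against 8.82 to 8.98), had the lowest scaled value of its stage for Rplp1 and Eif4b as well, and was the only maturation array scanned together with secretory arrays. The part of these values in the result was not tested. Its ratio of Rplp1 over Rpl13a was 1.66, as on maturation replicate 2, against 1.52 to 1.55 on the other maturation arrays.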

How the results depend on the processing

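Values are log2 differences. Leaving out 1 array changed no direction. In maturation minus secretory the ranges were -0.14 to -0.012 for Rpl13a and -0.26 to -0.13 for Eif4b, neither of which passed. Other ranges were 0.29 to 0.41 for Rplp1 and -0.39 to -0.19 for Rpl13a in secretory minus cervical loop, -0.37 to -0.24 for Rplp1 and -0.50 to -0.29 for Rpl13a in maturation minus cervical loop. For the ratio of Rplp1 over Eif4b they were -0.54 to -0.40 in maturation minus secretory and 0.26 to 0.36 in maturation minus cervical loop, and for Rpl13a over Eif4b 0.20 to 0.31 in the latter. The fall of Rplp1 from secretory to maturation, both falls of Eif4b from the cervical loop and both separations of Rplp1 over Rpl13a passed in all 15 omissions.

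In secretory minus cervical loop, Rplp1 no longer passed with the 90th percentile (0.24), normexp correction (0.23), normexp with quantile (0.11) and quantile normalization (0.12), and was -0.12 unscaled. Rpl13a passed with the 90th percentile (-0.38), quantile (-0.30), no scaling (-0.74), normexp (-0.34) and normexp with quantile (-0.30), and Eif4b did not with median scaling (-0.23). In maturation minus secretory, Rplp1 did not pass unscaled (-0.21). Rpl13a had the opposite sign with median scaling (0.12), no scaling (0.34), quantile (0.14) and normexp with quantile (0.15). Eif4b passed with the 90th percentile (-0.37), quantile (-0.35) and normexp with quantile (-0.36), and had the opposite sign with median scaling (0.020) and unscaled (0.24). In maturation minus cervical loop, median scaling gave 0.11 for Rplp1, 0.043 for Rpl13a and -0.21 for Eif4b, none of which passed. Rplp1 did not pass unscaled (-0.33), nor Rpl13a with quantile (-0.16) or normexp with quantile (-0.15). Percentile, median and no scaling differ by 1 value per array, so the shifts among these follow from that value. For quantile normalization and normexp the cause was not tested.

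For ratios, normexp ended the calls of Rplp1 over Eif4b in maturation minus secretory (-0.45, adjusted exact permutation p = 0.0536) and minus cervical loop (0.24, 0.0714). Quantile normalization gave 0.00176 for the first, -0.075 for Rplp1 over Rpl13a in maturation minus cervical loop, and calls for Rpl13a over Eif4b (0.49 and 0.72).

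With the replicate block, no limma call of a member changed (Rplp1 in maturation minus secretory -0.66, limma adjusted p = 0.000687). For ratios paired by number, 5 pairs cannot pass, and pairing leaves a mean difference as it is by arithmetic, so 0.62 and -0.55 for Rplp1 over Rpl13a and 0.77, -0.46 and 0.31 for Rplp1 over Eif4b say nothing about stability. Scan as a block left 5830 features called in maturation minus secretory. Within the shared scan there were 3393, and Rplp1 did not pass there (-0.96, with median scaling -0.92, with quantile -0.34), while Rpl13a was -0.44, with median scaling -0.41 and with quantile 0.085. These values and the scan block rest on 1 maturation array. The 2 last settings were chosen after the data were seen.

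With stages from the titles, limma called 0 features in maturation minus secretory (7182 had an unadjusted p under 0.05) and 11590 in maturation minus cervical loop. Rplp1 was then -0.19 in secretory minus cervical loop, 0.37 in maturation minus secretory and 0.18 in maturation minus cervical loop. Rpl13a was 0.086 and Eif4b 0.19 in maturation minus secretory, and Rpl13a did not pass in maturation minus cervical loop (-0.30). The ratio of Rplp1 over Rpl13a was 0.20 in secretory minus cervical loop and 0.28 in maturation minus secretory, and neither passed. Rplp1 over Eif4b was 0.45, 0.18 and 0.63, and Rpl13a over Eif4b -0.10 in maturation minus secretory. By title, the secretory group holds maturation replicates 2 to 5 with secretory replicate 1, and the maturation group holds the rest. The size and sign of these differences follow by arithmetic from that regrouping of the same arrays. Its part in the count of 0 calls was not tested, nor which label is right.

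Scaling on spike-in spots was not run, because only 25.3% to 47.5% of these spots were well above background. Other Eif4b probes were not run, because there was 1.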
